A study of Homo sapiens with 6 samples.

Results

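The proteasome subunit genes of human PC3 cells were followed after paxillin had been reduced with an siRNA. The set holds every gene of the deposited count table whose symbol is PSMA, PSMB, PSMC, PSMD or PSME followed only by digits, which gave 43 of 23285 genes. Of these, 42 had enough counts to be tested, and PSMB11 did not. By role they are 7 alpha ring and 7 standard beta ring subunits of the 20S core, 6 ATPases and 11 other subunits of the 19S cap, 3 assembly chaperones of that cap, the 2 activators PSME3 and PSME4, the 2 tissue-restricted core genes PSMA8 and PSMB11, and 5 immunoproteasome genes. The immunoproteasome genes PSMB8, PSMB9, PSMB10, PSME1 and PSME2 were compared with all 38 other members, called standard subunits here.

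PC3 is an established prostate cancer line, derived from a bone metastasis, that lacks the androgen receptor. One group of 3 libraries came from PC3 cells given a non-specific siRNA and the other group of 3 from PC3 cells given siRNA against paxillin, an adaptor protein of focal adhesions, both harvested at 72 h. Both groups were therefore transfected cells of 1 line, and the sources used here do not give the siRNA sequences. Replicates carry the numbers 1 to 3 in each group. The labels do not say that these were separate cultures, and the spread behind the p-values, which is that between these samples, may be technical.

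The proteasome degrades proteins marked with ubiquitin. Its 20S core is a barrel whose outer rings are built of alpha subunits and whose inner rings are built of beta subunits, and the standard beta subunits PSMB6, PSMB7 and PSMB5 cut after acidic, basic and hydrophobic residues respectively. The 19S cap recognises ubiquitin, removes it, and unfolds the substrate with its ring of ATPases. Interferons raise a set of replacement subunits: PSMB9, PSMB10 and PSMB8 take the places of PSMB6, PSMB7 and PSMB5 in newly assembled cores, and PSME1 with PSME2 forms the PA28 alpha-beta activator, which can cap the core in place of 19S. Immunoproteasomes are known for making peptides that suit presentation on MHC class I, and are abundant in immune cells.

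Short stretches of promoter are shown for the immunoproteasome genes because these genes moved together, with stretches of standard subunits that hold the same letters for comparison. Windows from RefSeq (GRCh38.p14) were at hand for 38 of the 43 members, and the 250 bases before each transcript start were searched on both strands. In the lines that follow, given 5′ to 3′ on the strand of the gene, capitals mark the match to GAAANNGAA, the core of the interferon-stimulated response element, or to TTCNNNGAA, the pattern of a gamma-activated site.
PSMB10 (chr16:67936853-67936881, minus strand): gggtaaaggcGAAAGCGAAagcaggaagt
PSME2 (chr14:24146620-24146648, minus strand): cctggggagtGAAAGCGAAagcccgggcg
PSMB8 (chr6:32844094-32844122, minus strand): aactgtccttTTCTCGGAAaaggcagggg
PSMB4 (chr1:151399495-151399523, plus strand): tcgtctacagGAAAAAGAAagaaatgaca
PSMA4 (chr15:78540155-78540183, plus strand): atagtgaagaGAAAATGAAaggagagcgc
PSMB5 (chr14:23035040-23035068, minus strand): cccgacccccTTCAGTGAAaatggtcttt
PSMB5, nearer the start (chr14:23034901-23034925, minus strand): ttgctaggcgTTCTCAGAAttagtt

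PSMB10 and PSME2 share the same 9 letters, 21 to 13 and 28 to 20 bases before the start, inside a shared run of 12 letters, GAAAGCGAAAGC, which 9 of the 35116 promoter windows of all genes hold on the strand of the gene. GAAANNGAA was found in 2 of the 5 immunoproteasome genes and in 2 of the 33 standard genes with a window, PSMA4 and PSMB4, against 6.88% of all windows. TTCNNNGAA was found in 1 of the 2 windows of PSMB8 and in 6 of the 33 standard genes, against 6.57% of all windows. It stood 65 to 57 bases before the start in PSMB8, and PSMB5 held it both 158 to 150 and 15 to 7 bases before the start. PSMB9 and PSME1 held neither pattern in these windows. They did hold TGACNNNGC, the core of the antioxidant response element that NRF1 and NRF2 bind, as did PSME2 and 8 of the 33 standard genes, against 10.9% of all windows. The CCAAT box stood in the window of PSMB9, in no other immunoproteasome gene, and in 17 of the 33 standard genes, against 32% of all windows. These matches describe letters only, and the assay did not measure binding.

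The deposited estimated counts summed to between 25252317 and 30394729 per library, and divided by the value of 1 read they stood for 22209762 to 33627617 reads. No 2 libraries of a group agreed within sampling noise (chi-square per degree of freedom of 28.5 to 91.4). PXN, which encodes paxillin, lay at 718 to 854 CPM (counts of a gene relative to the library's total, TMM-scaled) with non-specific siRNA and at 55.7 to 91.7 CPM with paxillin siRNA. The log2 fold change of PXN was -3.54 ± 0.23 (SE; edgeR's quasi-likelihood test, adjusted p = 0.00613). Of 15876 genes tested, 0.882% were called higher and 0.302% lower with paxillin siRNA at an adjusted p under 0.05, the threshold used throughout. With the replicate number as a block, 11.7% were called higher and 10.7% lower. The epithelial keratins KRT8, KRT18 and KRT19 summed to 881 to 975 CPM in each library. Within this sum KRT8 was at 206 to 262 CPM with non-specific siRNA and at 263 to 320 CPM with paxillin siRNA. KRT19 went the other way, from 531 to 565 CPM to 403 to 503 CPM, and KRT18 overlapped between groups. None of these keratins was called in the fit with or without the block. KLK2 and KLK3, targets of the androgen receptor, had 0 or 1 read per library.

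The 5 immunoproteasome genes were all higher in each library with paxillin siRNA than in any library with non-specific siRNA. Of these, PSMB9 and PSMB8 passed the test, and PSMB10 and PSME1 passed it only with the replicate block. Groups that did not overlap in this direction were seen for 13.6% of all genes tested. The median log2 fold change over the 5 genes was 0.83, against 0.00 over all genes. Since the groups did not overlap, all 5 were by necessity higher in each of the 3 same-numbered pairs of libraries, which is no separate evidence. Of the 15876 genes tested, 8013, 7962 and 8157 were higher in pairs 1, 2 and 3. In bulk RNA, more cells with a transcript and more of it per cell cannot be told apart.

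PSMB9, the catalytic subunit LMP2 that replaces PSMB6, stood at 3.09, 4.26 and 3.70 CPM with non-specific siRNA and at 11.7, 10.5 and 12.1 CPM with paxillin siRNA, listed here and below in the order of replicates 1, 2 and 3. The 2 groups were far apart, and the spread within each was small beside the distance between them. Its mean rose from 3.68 ± 0.581 to 11.4 ± 0.873 CPM (SD, n = 3), a 3.10-fold change (log2 1.63 ± 0.19 SE, edgeR adjusted p = 0.0242). This was the largest log2 fold change of the 42 tested members.

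PSMB8, the subunit LMP7 that replaces PSMB5, stood at 23.9, 32.6 and 28.2 CPM with non-specific siRNA and at 55.6, 57.3 and 55.4 CPM with paxillin siRNA. The paxillin siRNA libraries were nearly level with each other, and the control libraries varied more. The mean rose from 28.2 ± 4.34 to 56.1 ± 1.03 CPM (SD, n = 3), which is 1.99-fold (log2 0.99 ± 0.14 SE, edgeR adjusted p = 0.0340).

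PSMB10, the subunit MECL-1 that replaces PSMB7, was measured at 6.47, 8.76 and 7.71 CPM with non-specific siRNA and at 12.9, 15.5 and 12.5 CPM with paxillin siRNA. In both groups replicate 2 was the highest library. The log2 fold change was 0.83 ± 0.18 (SE), or 1.78-fold. Its adjusted p was 0.0676 in the edgeR test and 0.00351 with the replicate block.

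PSME1 and PSME2 encode the alpha and beta chains of the PA28 ring, which opens the gate of the core. PSME1 was measured at 52.5, 60.9 and 59.6 CPM with non-specific siRNA and at 87.3, 80.8 and 81.7 CPM with paxillin siRNA, so that the groups were well separated. This was 1.44-fold (log2 0.53 ± 0.12 SE; edgeR adjusted p = 0.0694, and 0.00946 with the replicate block). PSME2 was measured at 20.6, 28.2 and 20.5 CPM and at 29.2, 28.4 and 28.9 CPM respectively. Its groups met closely, since control replicate 2 lay just under the lowest paxillin siRNA library. PSME2 had a log2 fold change of 0.32 ± 0.16 (SE), and it passed neither fit (edgeR adjusted p = 0.270, and 0.0991 with the block).

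**Figure D1:**
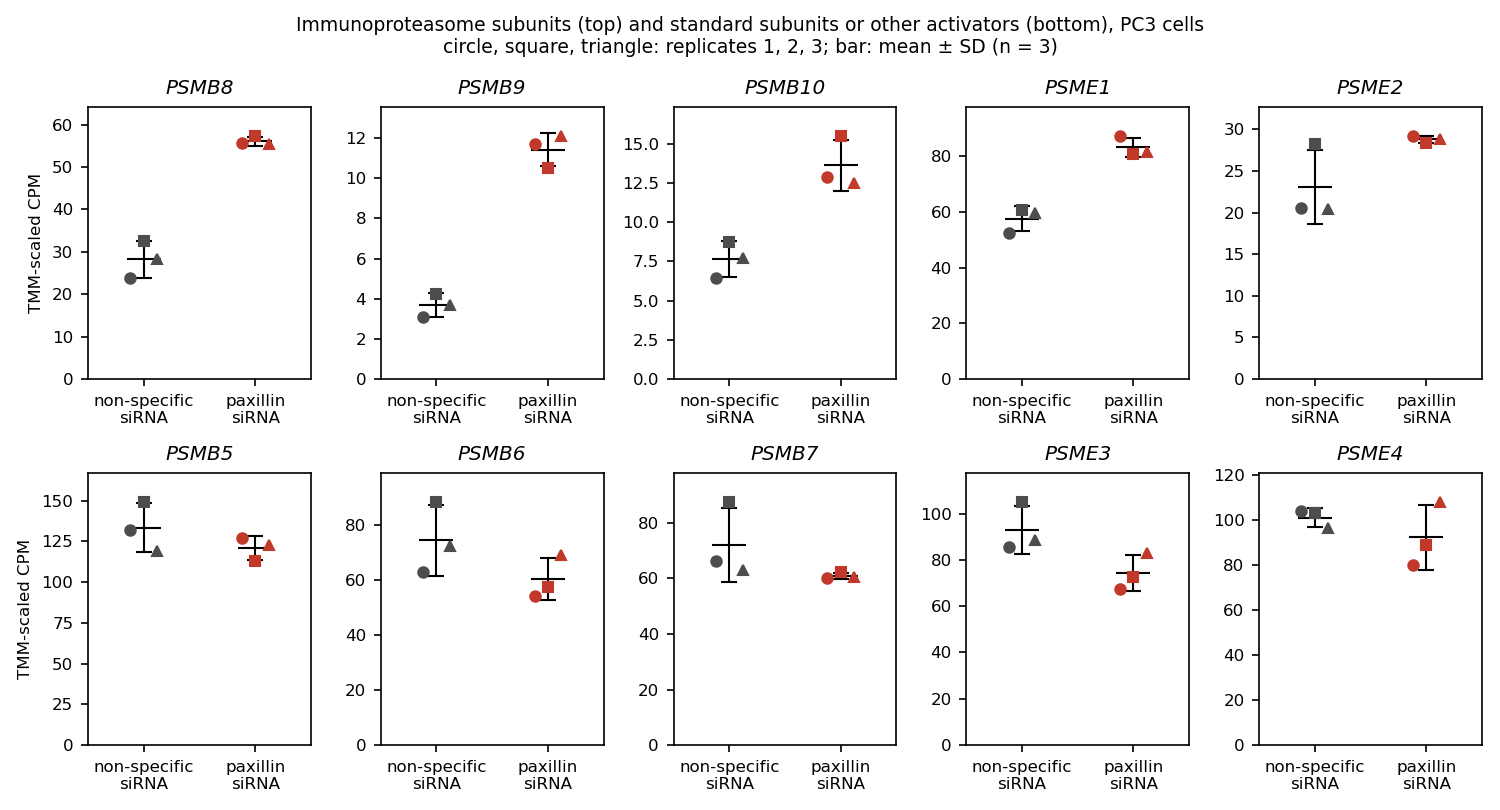
TMM-scaled CPM (y axis, from 0) of the 5 immunoproteasome genes in the top row and of PSMB5, PSMB6, PSMB7, PSME3 and PSME4 in the bottom row, by siRNA (x axis); symbols are replicates 1 to 3 and bars are mean ± SD (n = 3). The paxillin siRNA libraries lie above all control libraries in each top panel, with PSMB9 at 10.5 to 12.1 against 3.09 to 4.26 CPM, and in no bottom panel.

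The calls depended on which libraries were used. Without paxillin siRNA replicate 3, PSMB8, PSMB9, PSMB10 (adjusted p = 0.0252) and PSME1 (0.0315) all passed edgeR's test, where 7.24% of all genes were called higher and 7.88% lower. PSMB9 also passed without control replicate 3 (adjusted p = 0.0462), and no other omission of 1 library left any of the 5 genes called (adjusted p of PSMB8 0.0686 to 0.195 in the 5 fits it did not pass). At an unadjusted p under 0.05, 4 or 5 of the 5 genes were higher in each of these fits, against 6.81% to 16.3% of all genes, and the log2 fold changes of all 5 stayed above 0. DESeq2 called 4 of the 5, PSME2 being the exception, where it called 4.79% of all genes higher and 5.05% lower.

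Leukocytes hold immunoproteasomes constitutively, and their markers were looked up for that reason. The 12 leukocyte markers summed to 2.10, 1.86 and 1.76 CPM with non-specific siRNA and to 2.80, 3.21 and 2.60 CPM with paxillin siRNA, so the sum was also higher in the paxillin siRNA group. CD3D, a T cell receptor chain, was at 0 in every library, and PTPRC (CD45), which marks all leukocytes, was at 0.0346 to 0.108 CPM. The markers with enough counts to be tested were CD79A, a chain of the B cell receptor, and CD14, of monocytes. CD79A was at 0.391, 0.215 and 0.346 CPM with non-specific siRNA and at 0.449, 1.21 and 0.578 CPM after paxillin siRNA, without overlap (log2 1.22 ± 0.47 SE, edgeR adjusted p = 0.184, unadjusted 0.0329). CD14 was at 0.795 to 0.889 CPM and at 0.868 to 1.37 CPM, with overlap (edgeR adjusted p = 0.448). The part of these markers in the immunoproteasome result was not tested.

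The immunoproteasome genes lie in 3 places of the genome (hg19, from the FPKM table). PSMB8 and PSMB9 are in the MHC class II region of chromosome 6. PSMB9 (32821938 to 32827628, plus strand) starts 189 bases beyond the highest coordinate listed for TAP1, a peptide transporter gene on the minus strand. PSMB9 and TAP1 are thus transcribed away from each other. PSMB8 is listed at the same locus as TAP1 (32808494 to 32821748), so how reads were divided between them depends on the authors' counting, whose use of strand the sources do not give. The count table places PSMB8 and PSMB9 on an alternative haplotype of chromosome 6, as it does others of the 238 genes it lists on such sequences. PSME1 (24605378 to 24610797) and PSME2 (24612574 to 24615855) are neighbours on chromosome 14, 1776 bases apart and transcribed towards each other. PSMB10 is on chromosome 16 (67968407 to 67970780). PSME1 overlaps FAM158A, so reads of these 2 genes may not be separable either.

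The share that each replacement subunit took of its catalytic pair was then computed from FPKM, which corrects for gene length and so allows genes to be compared. PSMB8 made up 14.0%, 16.6% and 18.0% of the summed FPKM of PSMB8 and PSMB5 in the controls and 28.5%, 31.8% and 29.2% after paxillin siRNA. The mean share was 16.2% ± 2.04 and 29.8% ± 1.72 (SD, n = 3), while the sum of the pair was 54.6 ± 6.22 and 56.0 ± 3.76 FPKM. The standard subunit therefore stayed the more abundant transcript of this pair in every library.

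PSMB9 made up 3.52%, 3.39% and 3.66% of its pair with PSMB6 in the control libraries and 13.7%, 11.9% and 11.6% with paxillin siRNA. PSMB10 made up 10.6%, 11.5% and 12.9% of its pair with PSMB7 and then 20.9%, 22.5% and 20.4%. Neither pair overlapped between groups, and PSMB9 held the smallest share of its pair in both groups. The summed FPKM was 39.1 ± 7.02 and 33.0 ± 4.86 for PSMB9 with PSMB6, and 30.2 ± 5.09 and 27.4 ± 0.609 for PSMB10 with PSMB7 (SD, n = 3).

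PSME3, which forms the PA28 gamma ring found in the nucleus, served as the partner of both PA28 chains. The ratio of PSME1 to PSME3 was 1.82, 1.78 and 1.95 in the control libraries and 3.95, 3.26 and 2.91 with paxillin siRNA. The ratio of PSME2 to PSME3 was 0.906, 1.03 and 0.859 and then 1.68, 1.47 and 1.31. PSME2 was thus about level with PSME3 in the controls and above it in every paxillin siRNA library.

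Against its partner, each replacement gene was higher with paxillin siRNA in all 3 pairs of libraries. The mean log2 ratio was higher by 1.95 for PSMB9 to PSMB6, by 1.14 for PSMB8 to PSMB5 and by 1.03 for PSMB10 to PSMB7. It was higher by 0.86 for PSME1 to PSME3 and by 0.67 for PSME2 to PSME3. Each of the 5 ratios gave p = 0.1 in an exact two-sided permutation test over libraries, and 0.1 after adjustment over the 5, which is the smallest value that 3 against 3 allow. An exact sign-flip test over the 3 pairs gave 0.25, again the smallest possible.

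**Figure D2:**
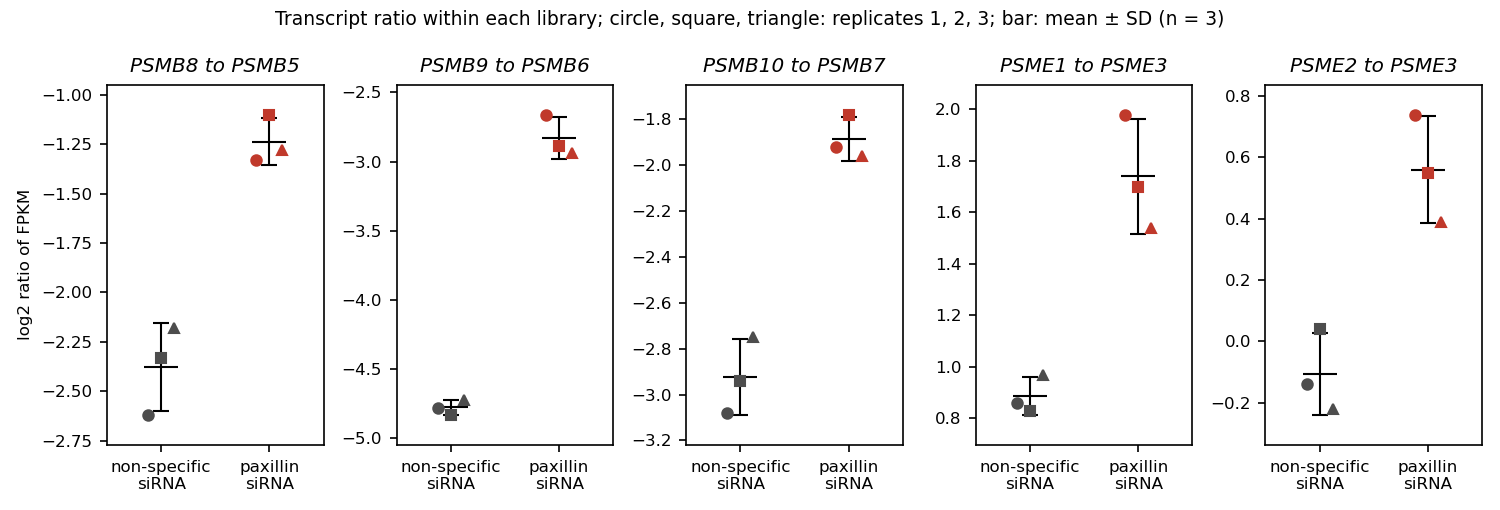
Log2 ratio of FPKM (y axis, own range in each panel) of each immunoproteasome gene to its standard partner, by siRNA (x axis); symbols are replicates 1 to 3 and bars are mean ± SD (n = 3). The groups do not overlap in any panel, and the PSMB9 to PSMB6 panel spans the largest difference, 1.95.

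The standard subunits lay on the other side of 0, by smaller amounts. Of the 37 tested, 36 had a log2 fold change below 0, as did 49.8% of all genes, and their median was -0.24, against 0.00 over all genes. None of them passed edgeR's test in either direction (smallest adjusted p = 0.119), while 8 were lower and 0 higher at an unadjusted p under 0.05, against 11.1% of all genes lower and 11.3% higher at that level. With the replicate block 6 of the 37 were called lower, against 10.7% of all genes: PSMA4, PSMC3, PSMD2, PSMD9, PSMD11 and PSMD14. DESeq2 called 1 lower, PSMD2 (adjusted p = 0.0398), against 5.05% of all genes. The libraries of the 2 groups did not overlap for 15 of the 37, all lower with paxillin siRNA, against 14.7% of all genes in that direction.

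This pattern leaned on 1 control library. Non-specific siRNA replicate 2 was the highest of the 6 libraries for 36 of the 37 standard subunits, PSME4 being the exception, against 22.9% of all genes tested. In log2 CPM centred on each gene's mean, the median standard subunit stood at 0.36 in that library and at -0.18 to 0.05 in the other 5. Leaving PSMA8 out, the median log2 fold change of the 36 remaining subunits was -0.25, and -0.12 without that library, with 33 of 36 still below 0. Omitting any other single library gave medians of -0.23 to -0.33. The median log2 ratio of same-numbered libraries was -0.14, -0.44 and -0.08 in pairs 1, 2 and 3. In these pairs 32, 37 and 30 of the 37 subunits were lower, against 49.5%, 49.8% and 48.6% of all genes tested.

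**Figure D3:**
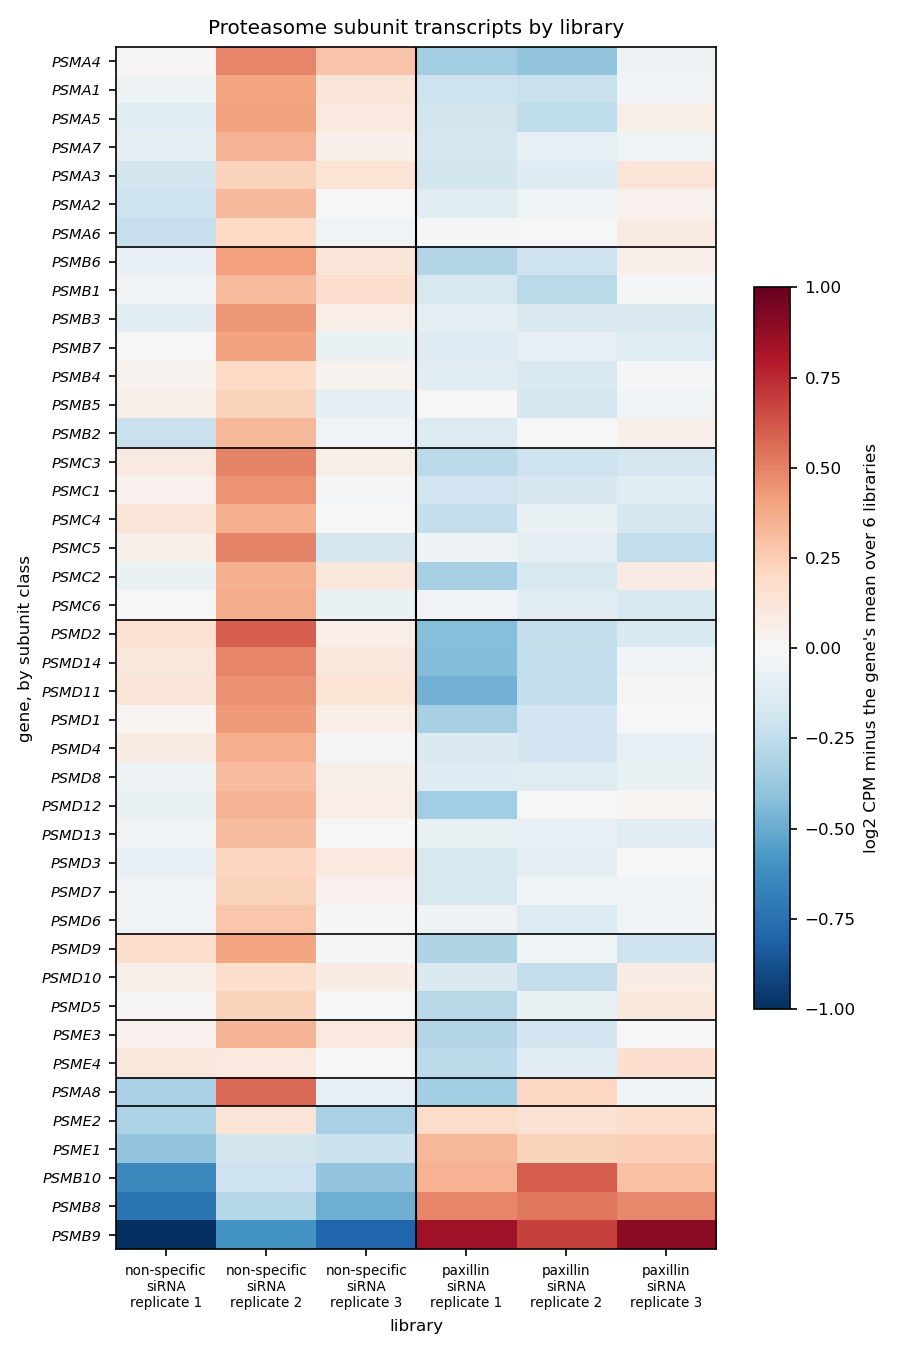
Log2 CPM minus the gene's mean over the 6 libraries (colour, red higher and blue lower) for the 42 tested members (rows, grouped by role and ordered by fold change) in each library (columns). Control replicate 2 is the reddest column for the standard subunits, with a median of 0.36, while the 5 immunoproteasome rows at the bottom split by siRNA.

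The alpha ring, which gates the entry to the core, ranged from -0.53 for PSMA4 to 0.04 for PSMA6 in log2 fold change (7 genes, median -0.21). PSMA4 was at 55.9, 77.5 and 67.3 CPM with non-specific siRNA and at 43.7, 42.1 and 53.6 CPM with paxillin siRNA. The groups did not overlap, and its log2 fold change was -0.53 ± 0.16 (SE; edgeR adjusted p = 0.119, and 0.0173 with the block). PSMA6 was at 126, 169 and 144 CPM and at 146, 148 and 157 CPM, which overlap (log2 fold change 0.04 ± 0.14 SE, edgeR adjusted p = 0.906). Its sign was not stable, being -0.01 in each of 3 fits of FPKM with limma. In FPKM, control levels of the ring ran from 6.22 for PSMA5 to 78.8 for PSMA7.

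The 7 standard beta subunits had log2 fold changes of -0.31 (PSMB6) to -0.07 (PSMB2), and none was called in either fit. The caspase-like PSMB6 was at 62.8, 88.4 and 72.5 CPM with non-specific siRNA and at 54.4, 57.6 and 69.0 CPM with paxillin siRNA (log2 -0.31 ± 0.16 SE, edgeR adjusted p = 0.308). The trypsin-like PSMB7 was at 66.3, 87.5 and 62.9 CPM and at 60.3, 62.3 and 60.6 CPM (log2 -0.24 ± 0.15 SE, edgeR adjusted p = 0.371). The chymotrypsin-like PSMB5 was at 132, 149 and 119 CPM and at 127, 113 and 123 CPM (log2 -0.14 ± 0.13 SE, edgeR adjusted p = 0.574). In the 3 catalytic genes the highest library was again control replicate 2, and only PSMB7 had groups that did not overlap. The least displaced gene was PSMB2, a subunit without catalytic activity, at 89.3, 131 and 102 CPM and at 94.6, 105 and 108 CPM. Control FPKM of the standard beta genes ran from 8.22 for PSMB2 to 69.3 for PSMB4, and that of the immunoproteasome genes from 1.37 for PSMB9 to 18.5 for PSME1.

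The 6 ATPases of the 19S cap, which thread substrates into the core, had log2 fold changes of -0.44 (PSMC3) to -0.22 (PSMC6). All 6 were lower in each pair of libraries, against 48.6% to 49.8% of all genes tested lower in a given pair. PSMC3 was at 67.2, 89.0 and 65.7 CPM with non-specific siRNA and at 52.2, 54.7 and 56.1 CPM with paxillin siRNA. Its groups did not overlap (log2 -0.44 ± 0.15 SE, edgeR adjusted p = 0.137, and 0.0303 with the block). Control FPKM of the ATPases lay in a narrow band, from 14.7 for PSMC3 to 30.9 for PSMC5.

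The 11 other subunits of the cap had log2 fold changes of -0.56 (PSMD2) to -0.15 (PSMD6). All 11 were lower in each pair, where 48.6% to 49.8% of all genes tested were lower. Groups did not overlap for 7 of the 11, all lower with paxillin siRNA, against 14.7% of all genes tested in that direction. PSMD2, a large scaffold subunit of the base, was at 365, 497 and 345 CPM with non-specific siRNA and at 245, 279 and 295 CPM with paxillin siRNA (log2 -0.56 ± 0.18 SE, edgeR adjusted p = 0.128, and 0.0217 with the block). PSMD14, the enzyme that removes ubiquitin chains from the substrate, was at 66.2, 85.5 and 66.1 CPM and at 45.3, 51.6 and 59.4 CPM (log2 -0.48 ± 0.16 SE, edgeR adjusted p = 0.137, and 0.0238 with the block). PSMD11, a subunit of the lid, was at 35.6, 45.0 and 36.0 CPM and at 23.5, 27.7 and 33.1 CPM (log2 -0.47 ± 0.17 SE, edgeR adjusted p = 0.160, and 0.0280 with the block). In all 3, paxillin siRNA replicate 3 was the library closest to the controls. Without it, PSMA4 (adjusted p = 0.0375), PSMD11 (0.0473) and PSMD14 (0.0491) passed edgeR's test without a block. That fit called 7.88% of all genes lower. PSMD6 was at 36.5, 45.2 and 36.7 CPM and at 35.9, 34.0 and 36.6 CPM, with groups that overlapped.

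PSMD9, PSMD5 and PSMD10 are chaperones that help to assemble the base of the cap and are not part of the finished particle. PSMD9 was at 63.2, 73.5 and 55.2 CPM with non-specific siRNA and at 45.3, 54.2 and 48.2 CPM with paxillin siRNA (log2 -0.38 ± 0.14 SE, edgeR adjusted p = 0.180, and 0.0425 with the block). PSMD5 had a log2 fold change of -0.15 and PSMD10 one of -0.20, and both had groups that overlapped. Outside the cap, the nuclear activator PSME3 was at 85.4, 105 and 88.6 CPM and at 67.6, 72.7 and 82.8 CPM (log2 -0.32 ± 0.14 SE, edgeR adjusted p = 0.218). PSME4, which encodes the activator PA200, was at 104, 103 and 96.3 CPM and at 80.0, 89.0 and 108 CPM, the highest library being paxillin siRNA replicate 3 (log2 -0.13 ± 0.14 SE, edgeR adjusted p = 0.615).

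The 2 tissue-restricted core genes were near the limit of detection. PSMA8, the alpha subunit of spermatocytes, was at 0.598 to 1.18 CPM over the 6 libraries (log2 fold change -0.15 ± 0.35 SE, edgeR adjusted p = 0.835). PSMB11, the thymus subunit beta5t, had at most 0.104 CPM, and at most 2 reads in any library, and was not tested. Several standard subunits have processed pseudogenes whose sequence resembles theirs, and the counts of those members are uncertain to the extent that such reads were shared. PSMA3, PSMB7, PSMC2, PSMC5, PSMD1 and PSMD6 also overlap another listed gene.

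**Figure D4:**
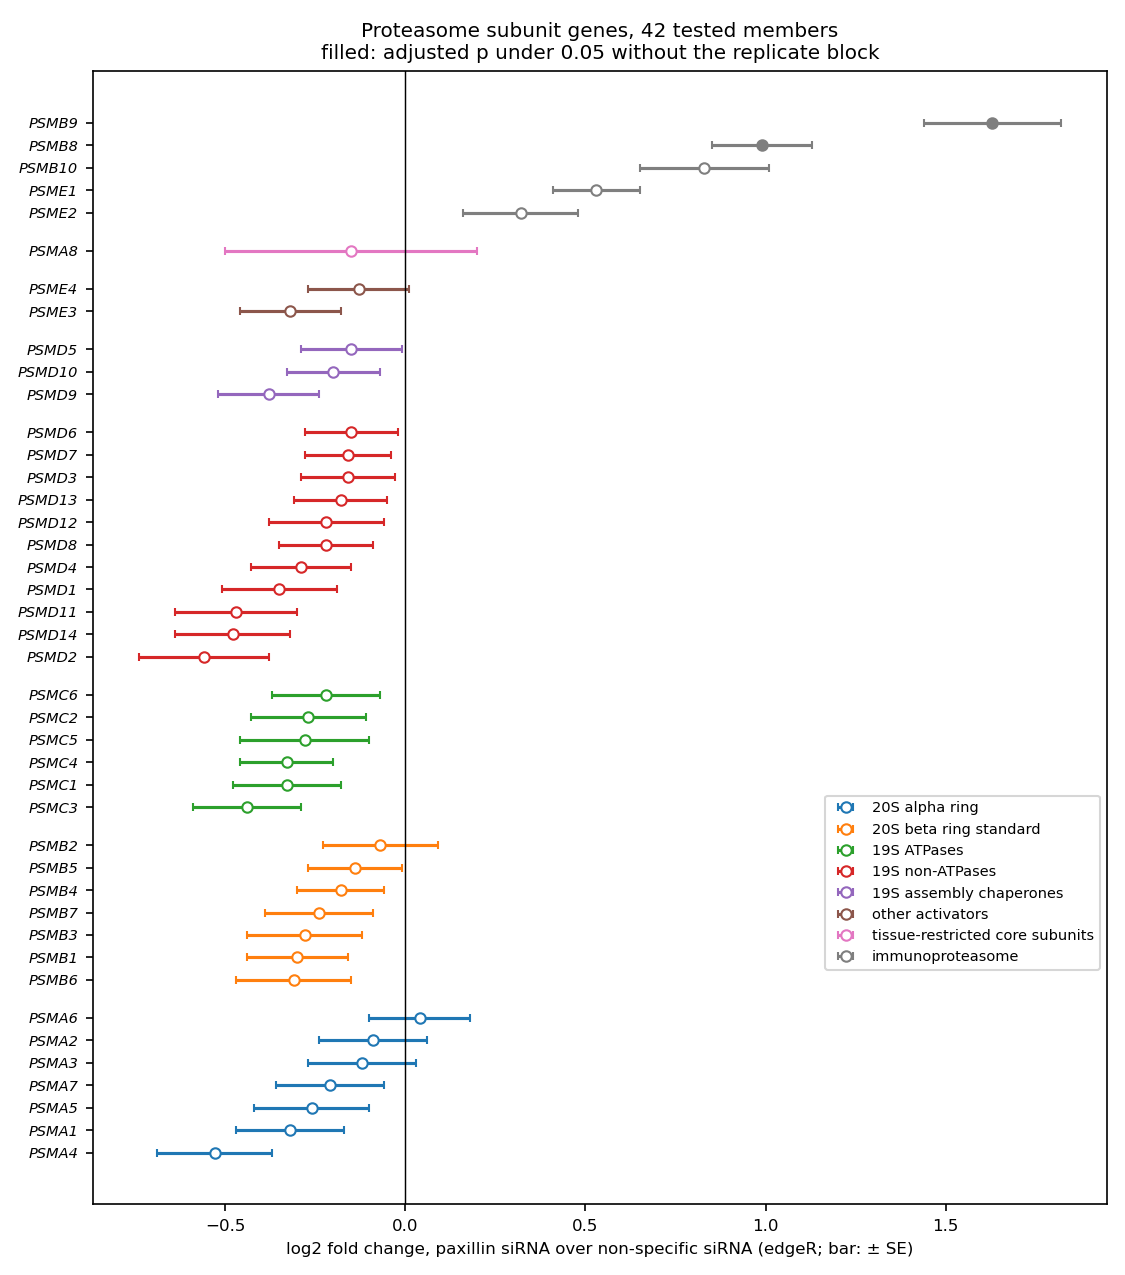
Log2 fold change of paxillin siRNA over non-specific siRNA (x axis; bars are ± SE from edgeR) for the 42 tested members (y axis), coloured by role; filled points have an adjusted p under 0.05 without the block. PSMB9 and PSMB8 are the filled points, and the 5 immunoproteasome genes (0.32 to 1.63) lie to the right of all standard subunits (-0.56 to 0.04).

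The distance between the 2 sets of genes did not hinge on 1 setting. In the main fit the lowest immunoproteasome value, that of PSME2, lay 0.29 above the highest standard value on the log2 scale. Over the 14 other settings tried, this gap was 0.22 to 0.34. Since the 2 sets were defined by role and the standard set leaves its rare genes PSMA8 and PSMB11 aside here, the gap describes these members and carries no test.

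Genes that work with the proteasome were described from 6 lists holding 67 genes, 65 of them tested. Without the block 5 were called higher and 0 lower by edgeR, against 0.882% and 0.302% of all genes. With the block these were 19 and 3, against 11.7% and 10.7%. At an unadjusted p under 0.05, 19 were higher and 4 lower in the fit without the block, against 11.3% and 11.1%. All the genes called higher belonged to the lists on class I antigen processing and on interferon regulators.

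Class I antigen processing covers the steps after the proteasome, in which peptides are carried into the endoplasmic reticulum, trimmed and loaded. Of its 15 genes, 3 were called higher and 12 with the block, none lower, and the median log2 fold change was 0.94. TAP1, a subunit of the peptide transporter, was at 66.3, 68.9 and 101 CPM with non-specific siRNA and at 182, 191 and 210 CPM with paxillin siRNA (log2 1.30 ± 0.19 SE, edgeR adjusted p = 0.0340). B2M, the light chain of class I molecules, was at 759, 960 and 848 CPM and at 2404, 2453 and 1799 CPM (log2 1.37 ± 0.19 SE, edgeR adjusted p = 0.0337). TAPBPL, a peptide editor, was at 0.484 to 0.676 CPM and at 1.52 to 2.73 CPM (log2 1.94 ± 0.32 SE, edgeR adjusted p = 0.0426). The general chaperones CALR, CANX and PDIA3 were the 3 genes not called in either fit, at log2 fold changes of -0.15, -0.29 and -0.24. HLA-B and HLA-C, which encode heavy chains, had log2 fold changes of 0.97 and 0.98 and passed only with the block. Their counts are uncertain because these genes resemble each other closely.

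Interferon signalling is the main known inducer of the immunoproteasome genes. Of its 15 listed regulators 13 were tested, 2 were called higher and 7 with the block, none lower, with a median log2 fold change of 0.51. NLRC5, which activates class I genes, was at 3.59, 2.58 and 3.42 CPM with non-specific siRNA and at 15.1, 13.4 and 10.7 CPM with paxillin siRNA (log2 2.03 ± 0.22 SE, edgeR adjusted p = 0.0173). IRF1, IRF9, STAT2, IFNGR1 and SOCS1 passed with the block only. The kinases JAK1, JAK2 and TYK2 had log2 fold changes of -0.04, 0.02 and 0.14 and were not called. Of the ligands, IFNG was at 0 in all 6 libraries, and IFNB1 was at 0 to 0.215 CPM and at 0.224 to 0.755 CPM, too low to be tested.

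Of the other 4 lists, 3 had a median below 0, and the pathway of NRF1 had one above 0. The 6 chaperones that assemble the core, among them PSMG3 (log2 fold change -0.29) and POMP (-0.21), had a median of -0.10, with 0 called in both edgeR fits. The 14 associated proteins and shuttles had a median of -0.20, and with the block 2 were called lower, against 10.7% of all genes. These were UCHL5, a deubiquitinase bound to the cap (log2 -0.50, adjusted p with the block 0.0234), and RAD23B, which delivers ubiquitinated proteins (log2 -0.48, adjusted p with the block 0.0199). The 9 genes of ubiquitin and its activation had a median of -0.30. Only UFD1L, a cofactor of the segregase VCP, was called lower with the block (log2 -0.50, adjusted p 0.0188), again against 10.7% of all genes. NFE2L1 encodes NRF1, the factor that raises standard subunit genes when proteasome activity is short. The 8 genes of its pathway had a median of 0.14 and none was called in either fit, with NFE2L1 itself at -0.33 ± 0.23 and DDI2, the protease that activates it, at 0.36 ± 0.31 (log2 fold change, SE).

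**Figure D5:**
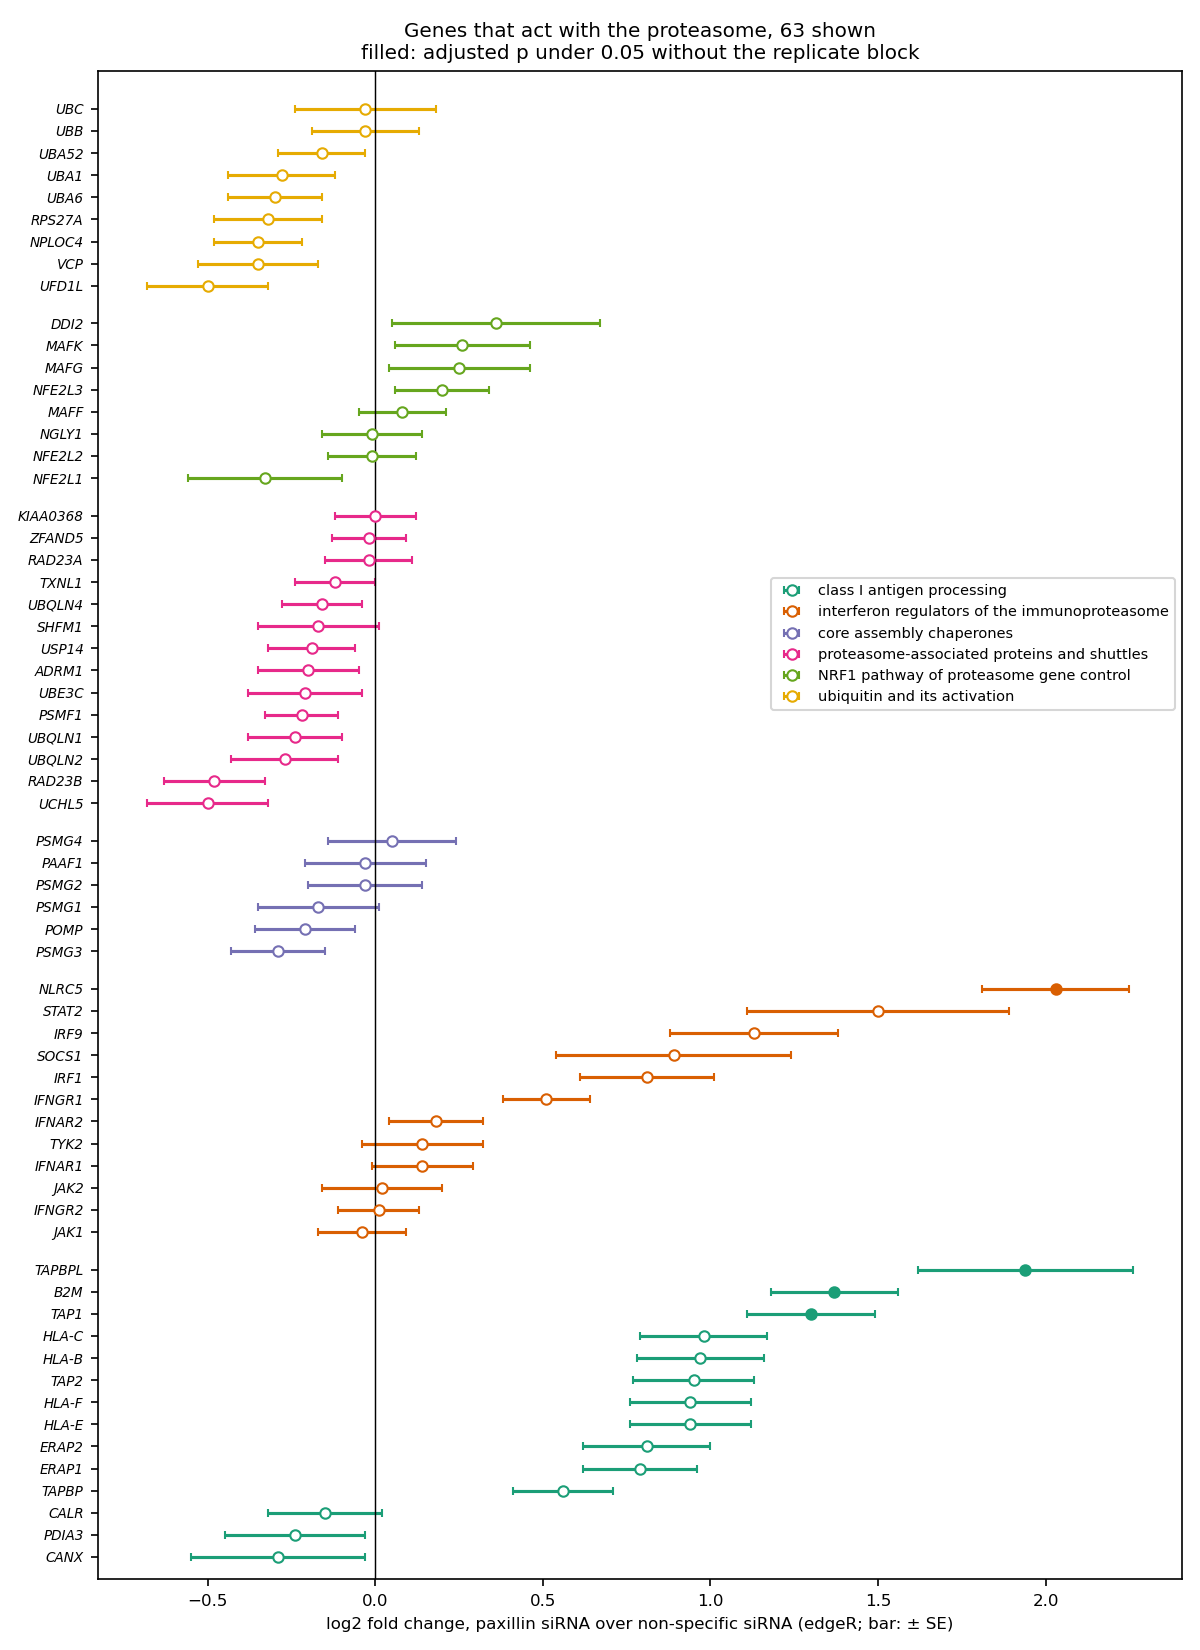
Log2 fold change of paxillin siRNA over non-specific siRNA (x axis; bars are ± SE from edgeR) for 63 of the 65 tested genes of the 6 lists (y axis), coloured by list; filled points have an adjusted p under 0.05 without the block. The 4 filled points are NLRC5, TAPBPL, B2M and TAP1, between 1.30 and 2.03, and the ubiquitin list has no point above 0.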

How the data were processed

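RNA of 6 PC3 libraries was sequenced. The deposited count table holds estimated counts per gene, 1 column per library, per the file headers, and the second table holds FPKM computed by the authors, per the file headers. Genome build hg19 and the tools FastQC 0.10.1 and Cufflinks 2.0.2 come from the submitters' processing notes. Aligner, annotation and strand setting: not given in the sources used here. Each library's estimated counts had been multiplied by 1 factor, since 91.2% to 91.7% of values were whole multiples of 1 step within 0.05.

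Rounded estimated counts entered the two-sided quasi-likelihood test of edgeR 4.0.16 (R 4.3.3; TMM, filterByExpr, no term but group), with Benjamini-Hochberg adjustment over 15876 genes and a threshold of 0.05. The SE is the log2 fold change divided by the square root of F. Levels are TMM-scaled CPM. Ratios used FPKM and an exact permutation test (scipy 1.17.1). The edgeR step was run on simulated data with planted changes, as a check that it returned their direction. The simulation held no replicate pairing and set no bar for recovery or false calls. Alternatives were the replicate block, DESeq2 1.42.0, RLE factors, no count filter, limma 3.58.1 on log2(FPKM + 1) or log2(FPKM + 0.1) with a mean FPKM of at least 1 or no minimum, and each library left out. A fit on single reads was added after the data had been seen. Coordinates are 1-based, with starts raised by 1. In 539 genes the 2 tables give different loci.

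The labels give both groups the same replicate numbers. Across genes, the deviation of a library from its group mean correlated with that of its same-numbered partner at 0.34, 0.43 and 0.56. With other libraries of the other group it correlated at -0.48 to 0.11. Deviations within a group sum to 0, so these lower values are not separate evidence. The numbers were taken to pair the libraries where pairs are given. The labels do not state a pairing, so the main fit leaves it out, and the fit with the replicate block is the one that uses it.

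The members and lists were chosen with earlier results of these data known. Named were the 5 immunoproteasome genes and their partners, members called in either edgeR fit, the extremes of each role, untested members, and in each list the called genes and the 2 largest changes. HLA-B, HLA-C, CALR, CANX, PDIA3, further interferon regulators, marker genes and PSMD10 were named after their values had been seen. The epithelial, androgen and leukocyte marker lists served as a check of the cells. The values of 2 list genes, which the counts of the lists include, are not reported here.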

Additional observations from a re-analysis of the deposited data

How the results depend on the processing

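With the replicate block 4 immunoproteasome genes were called higher and 6 standard subunits lower, and 19 list genes were called higher and 3 lower. Over all genes it called 1858 higher and 1703 lower. It changed no other call named above. DESeq2 gave 4 and 1 for the members, 18 and 1 for the lists, and 759 and 800 for all genes. Without the count filter edgeR gave 10 list genes higher, and 215 and 88 of all genes. Limma on log2(FPKM + 1) called 1 immunoproteasome gene, 2 list genes higher, and 23 and 10 of all genes. With a pseudocount of 0.1 these were 1, 2, 46 and 17. Limma with no FPKM minimum called 0 genes of any kind, where 4 immunoproteasome genes, 14 standard subunits, 19 list genes, and 1533 and 2435 of all genes had an unadjusted p under 0.05 in their direction. Leaving out each library in turn, edgeR called 0 to 4 immunoproteasome genes higher, 0 to 3 standard subunits lower, 0 to 16 list genes higher and 0 to 4 lower, and 0 to 1169 and 0 to 1271 of all genes. No gene was called without control replicate 1 or 2, where 1285 and 1549 genes were higher at an unadjusted p under 0.05. Each such fit estimates the spread from fewer libraries. PSMA6 turned to -0.01 in the 3 limma fits. Omitting single libraries, it ran from -0.07 (without control replicate 1) to 0.15, PSMA8 from -0.34 to 0.18 and PSMB2 from -0.19 to 0.10, both highest without control replicate 2. Among the other values of named members, 271 kept their direction and side of the threshold, 16 newly passed it and 13 no longer did. The 5 ratios kept their sign in CPM. Within pairs and without each library their sign could not change, since the groups did not overlap, so these settings are no separate check. Genes near 1 CPM, such as PSMA8, are limited by depth.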
